A study of Arabidopsis thaliana with 28 samples.

Results

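The genes described here make, remove and sense cytokinins, and their transcripts were measured by RNA-Seq in cells sorted from the Arabidopsis root tip. They were chosen by name from the known families: 3 AHK receptors, 6 AHP phosphotransfer proteins, 7 type-B and 10 type-A ARR response regulators, 4 IPT, 6 LOG and 7 CKX enzymes, together 43 of the 33201 genes in the deposited values. Every group came from 5-day-old Col-0 seedlings whose root tips were digested to protoplasts and sorted by fluorescence. Marker-positive cells came from AGL42:GFP for the whole stem cell niche (SCN, n = 4), CYCD6:GFP for the cortex endodermis initials (CEI, n = 3), CVP2:NLS:VENUS for the protophloem (Protophlo, n = 4) and FEZ:FEZ:GFP for the initials of epidermis and lateral root cap (Epi/LRC, n = 3). The enhancer trap J2341:GFP gave the columella stem cells (CSC, n = 3), TMO5:3xGFP the xylem initials (Xyl, n = 4) and WOX5:GFP the quiescent center (QC, n = 3). The non-stem cells (NSC, n = 4) were the GFP-negative cells of AGL42:GFP, a mixture of the remaining root tip cells. AGL42:GFP was used to mark the niche as a whole, including cells that the other lines mark, so the SCN was compared with NSC only.

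Cytokinins are adenine-derived hormones. IPT enzymes add the side chain to an adenine nucleotide, LOG enzymes release the active free base from the nucleotide, and CKX enzymes degrade it. AHK receptors pass a phosphoryl group through AHP proteins to the nucleus, where type-B ARRs act as transcription factors. Their targets include the type-A ARRs, which dampen the response. In the root, cytokinin is known for promoting differentiation at the edge of the meristem and for patterning the vascular cylinder. There, AHP6 counteracts cytokinin signalling at the protoxylem position, and the bHLH factor TMO5, in complex with LHW, activates LOG3 and LOG4 in young xylem cells.

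Values are FPKM, fragments scaled to transcript length and to the mapped reads of the sample. One read in a 1 kb transcript was worth 0.0317 to 0.13 FPKM depending on the sample, as estimated from the lowest steps in the values, and 13643 to 18778 genes per sample had at least 1 FPKM. AGL42 was at 4.73 to 31.9 FPKM in the SCN and at 0 to 0.354 FPKM in Xyl, against 1.05 to 2.60 FPKM in NSC, and TMO5 was at 0 to 1.17 FPKM in the SCN. The marker gene set apart the Xyl samples (TMO5 at 851 to 1340.4 FPKM, against 5.75 to 16.4 FPKM in NSC) and the QC samples (WOX5 at 127 to 264 FPKM, against 1.28 to 6.95 FPKM in NSC). FEZ was at 72.3 to 262 FPKM in Epi/LRC, at 55.9 to 109 FPKM in CSC and at 0.695 to 2.59 FPKM in NSC. CVP2 was at 0 to 5.22 FPKM in Protophlo, below its 10.5 to 26.5 FPKM in Xyl, and NAC086, a regulator of phloem maturation, was listed at 0 in all 4 Protophlo samples, so those samples are named here after their sort only. CYCD6 was at 1.48 to 22.7 FPKM in CEI and at 6.30 to 24.04 FPKM in CSC. 3 libraries were singled out for a marker of another tissue. CSC 2 held TMO5 at 82.0 FPKM, against 3.53 and 0 FPKM in CSC 1 and CSC 3. CASP1, an endodermal gene, was at 999.8 FPKM in CEI 2 and at 3040.1 FPKM in Protophlo 4, outside the 444 to 788 FPKM of the NSC samples. Calls lost when these 3 libraries were left out together are named in the closing section. Markers also varied within other groups. COBL9, an epidermal gene, was at 451 FPKM in SCN 1 and 0.0938 to 125 FPKM in the other SCN samples, and at 265 FPKM in QC 2 and 2.30 and 15.98 FPKM in the other QC samples. In all 4 Protophlo samples COBL9 was at 69.8 to 254 FPKM, against 5.99 to 14.5 FPKM in NSC. The other epidermis markers, WER and GL2, overlapped with NSC in Protophlo. CASP1 was at 167 FPKM in QC 1 and 0.531 and 18.7 FPKM in the others, and ATHB8, a vascular gene, was at 59.3 FPKM in Epi/LRC 3 and 0.734 and 2.64 FPKM in the others. Each sample was also left out in turn for the genes of these families, and losses are named beside their calls described with a fold change. The CEI columns were identified partly by elimination.

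Of the 43 genes, 38 had at least 1 FPKM in at least 3 samples and were tested. ARR16, IPT3, LOG5, CKX1 and CKX2 did not pass this filter, and their highest values were 1.60, 2.59, 0.507, 1.66 and 0.1 FPKM. Adjusted p-values are those of limma on log2(FPKM + 1), corrected by Benjamini-Hochberg over all 22694 genes tested in a comparison, and a gene was called at an adjusted p under 0.06 with a fold change over 2. Replicates are the study's biological replicates. Differences among the 8 populations were called by the F test for 26 of the 38 genes, against 61.2% of all genes tested.

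Compared to NSC, calls were most frequent in Xyl both among the cytokinin genes and among all genes. Of the 38 genes, 5 were higher (background 20% of all genes) and 15 were lower (background 23.5%), a total of 20, or 52.6% (background 43.6%). In CSC 6 were higher (background 22.6%) and 7 were lower (background 18.3%), a total of 13 (background 40.9%), which is below the share of all genes. Epi/LRC had 7 genes lower (background 16.6%) and 0 higher (background 12.5%), with 11 in either direction at an unadjusted p under 0.05 and a background of 29.1% for both directions together. In the QC 1 gene was higher (background 9.31%) and 6 were lower (background 9.49%), a total of 7 (background 18.8%) that was 2 without QC 2 or QC 3. The SCN had 1 gene higher (background 5.52%) and 4 lower (background 8.89%), a total of 5 (background 14.4%) that was 3 without SCN 1. Protophlo likewise had 1 gene higher (background 3.51%) and 4 lower (background 10.5%), a total of 5 (background 14%) that was 2 without NSC 2. In the CEI the count was 1 lower gene (background 5.04%) and 0 higher (background 5.37%, and 10.4% for both directions together), with 7 genes at an unadjusted p under 0.05. These 7 comparisons share the NSC samples. In bulk samples such as these, fewer cells of a type and less RNA per cell cannot be told apart.

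**Figure D1:**
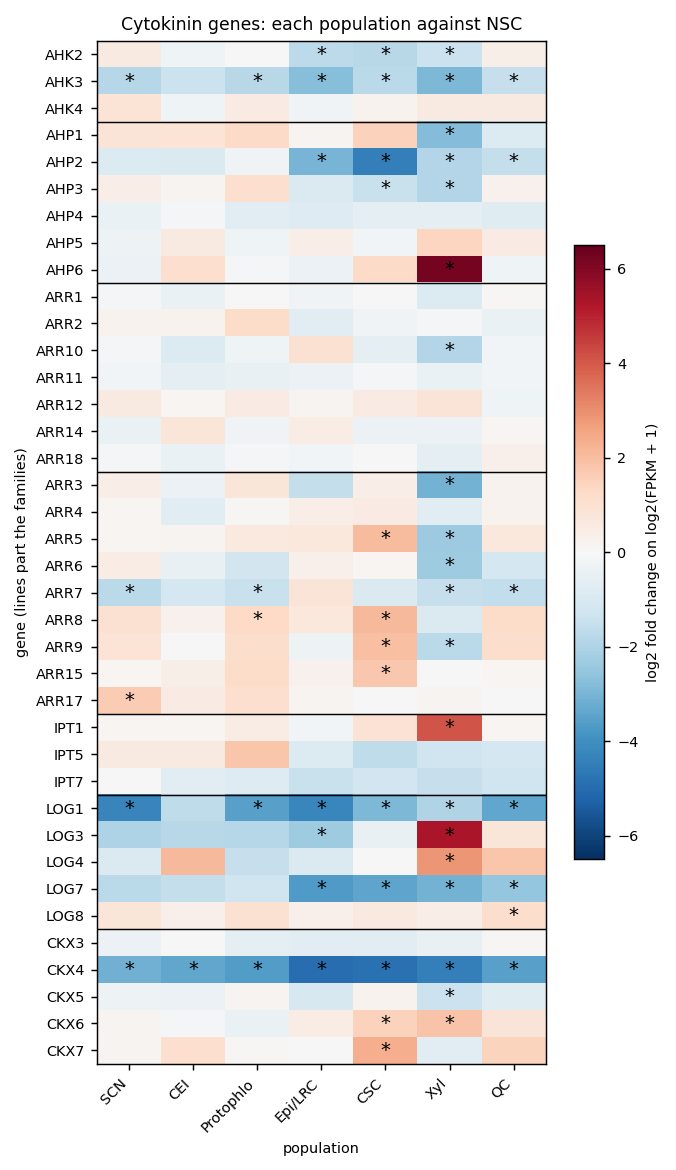
The map gives the log2 fold change of each of the 38 tested genes (rows, parted by family) in each of the 7 sorted populations against NSC (columns), on the log2(FPKM + 1) scale, with asterisks on the called ones. The Xyl column holds the most asterisks, 20, with the deepest red at AHP6, LOG3 and IPT1, while the rows of CKX4, LOG1 and AHK3 are blue in every column.

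Set against the other 5 stem cell types, Xyl had the most called cytokinin genes, although Protophlo had the highest background: 5 were higher (background 12.2%) and 11 lower (background 11.6%), a total of 16 (background 23.8%). Protophlo had 7 higher (background 13.6%) and 4 lower (background 24.3%), a total of 11 (background 37.9%). CSC had 6 higher (background 13.2%) and 3 lower (background 7.41%), a total of 9 (background 20.6%). Of these CSC calls, ARR15, ARR9, AHP1, ARR5, AHP3 and AHK2 were lost when CSC 2, CEI 2 and Protophlo 4 were left out together. Epi/LRC had 2 higher (background 1.94%) and 2 lower (background 2.26%), a total of 4 (background 4.2%). In the CEI, limma called 0 of 38 genes (background 2.44% higher, 0.538% lower and 2.97% together), with 7 at an unadjusted p under 0.05. In the QC it also called 0 (background 1.56% higher, 0.375% lower and 1.94% together), with 5 at an unadjusted p under 0.05.

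The IPT genes, which start the synthesis, differed in where they were highest. IPT1 led the family in all 4 Xyl samples, and IPT5 led in 18 of the 28 samples overall. IPT1 (AT1G68460) had 16.7, 15.6, 22.7 and 17.6 FPKM in the Xyl samples. In CSC it had 0, 7.78 and 0.116 FPKM, in Protophlo 0.291, 0.377, 0.609 and 1.2 FPKM and in the QC 0.874, 0 and 0 FPKM. In Epi/LRC it was listed at 0 in every sample, and it had 0.312, 0 and 0.315 FPKM in the CEI, 0.265, 0.114, 0.2 and 0.399 FPKM in the SCN and 0.0856, 0.312, 0.0364 and 0.0567 FPKM in NSC. Every Xyl sample lay above every other sample, and the only other value over 2 FPKM was that of CSC 2. IPT1 was called in Xyl against NSC (log2 fold change 4.08 ± 0.45 (SE), adjusted p = 2.06e-07) and against the other 5 types (log2 fold change 3.78 ± 0.36 (SE), adjusted p = 2.54e-08). IPT5 (AT5G19040) had 18.9, 25.7, 13.2 and 18.2 FPKM in Protophlo. The SCN had 15.6, 6.27, 1.59 and 14.4 FPKM, the CEI 3.19, 8.7 and 12.8 FPKM and Epi/LRC 1.63, 0 and 8.87 FPKM. In CSC it had 3.94, 0 and 0.116 FPKM, in Xyl 2.71, 2.37, 0.647 and 0.273 FPKM, in the QC 1.01, 6.9 and 0 FPKM and in NSC 6.95, 3.19, 4.17 and 4.5 FPKM. The 4 Protophlo values lay above those of the other 5 types, and IPT5 was higher in Protophlo than in those types (log2 fold change 2.70 ± 0.57 (SE), adjusted p = 0.000536). Against NSC it did not pass the threshold (log2 fold change 1.81 ± 0.73 (SE), adjusted p = 0.0994). IPT7 reached 16.3 FPKM in SCN 3 and was not called in any comparison, and IPT3 was above 1 FPKM in Protophlo 3 only.

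The LOG family was led by LOG3 in all 4 Xyl samples and by LOG7 in all 4 NSC samples. LOG3 (AT2G37210) had 141, 208, 219 and 219 FPKM in Xyl. In the QC it had 13, 7.05 and 4.37 FPKM, in CSC 0, 29.2 and 0.457 FPKM and in the CEI 1.66, 0 and 0 FPKM. LOG3 was 0 in every sample of Epi/LRC, and had 2.42, 0, 0 and 0 FPKM in Protophlo and 0, 0, 0 and 1.26 FPKM in the SCN, against 3.87, 5.59, 4.4 and 2.27 FPKM in NSC. All Xyl values lay far above every other sample, the next of which was CSC 2. LOG3 was higher in Xyl than in NSC (log2 fold change 5.32 ± 0.71 (SE), adjusted p = 3.15e-06) and than in the other 5 types (log2 fold change 6.44 ± 0.56 (SE), adjusted p = 7.37e-09). The order below Xyl was less clear: the QC and NSC values overlapped. Xyl exceeded the QC by 4.52 ± 0.77 (SE), a pair outside the planned comparisons that is given as a description.

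LOG4 (AT3G53450) had 18.9, 32.8, 23.4 and 35.8 FPKM in Xyl. The CEI had 20.6, 9.23 and 18.2 FPKM and the QC 16.3, 13 and 8.34 FPKM, whereas CSC had 0, 8.59 and 4.66 FPKM and Epi/LRC 0, 6.99 and 0 FPKM. LOG4 had 0.128, 0, 0 and 2.01 FPKM in Protophlo, 1.14, 5.99, 0 and 0 FPKM in the SCN and 1.38, 3.84, 4.02 and 2.61 FPKM in NSC. Xyl and CEI overlapped, and all Xyl values lay above those of NSC (log2 fold change 2.87 ± 0.71 (SE), adjusted p = 0.00194). The Xyl call against NSC was lost with a pseudocount of 0.1. All CEI and QC values also lay above those of NSC, but LOG4 was not called there. Against the other 5 types LOG4 was higher in Xyl (log2 fold change 2.58 ± 0.56 (SE), adjusted p = 0.00166) and lower in Protophlo (log2 fold change -2.65 ± 0.56 (SE), adjusted p = 0.000528). A long noncoding RNA is annotated on the opposite strand of LOG4, and without strand its reads and those of LOG4 cannot be told apart. In CSC 2, the library with TMO5 at 82.0 FPKM, AHP6 (24.1 FPKM), LOG3 (29.2 FPKM) and IPT1 (7.78 FPKM) were also the highest of the CSC samples. The part of TMO5-marked cells in those values was not tested.

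**Figure D2:**
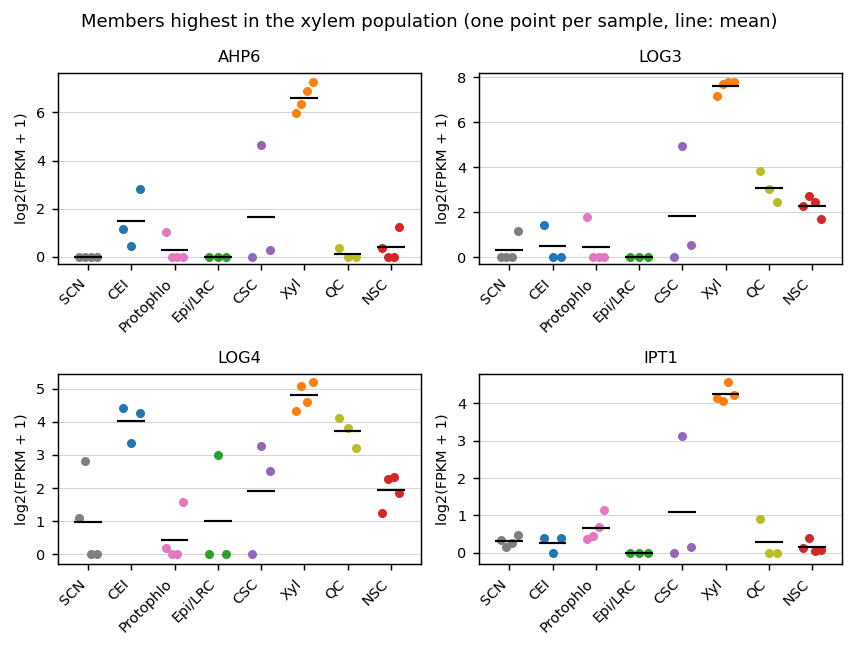
Points are the log2(FPKM + 1) of AHP6, LOG3, LOG4 and IPT1 in each sample of each population, with NSC at the right, and lines are population means on that scale. The 4 Xyl points lie above all others for AHP6, LOG3 and IPT1, and the single raised CSC point in each of these 3 panels is CSC 2. The LOG4 points of the CEI and the QC also lie above those of NSC, but LOG4 was not called there.

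LOG3 and LOG4 are shown with the 250 bases before their annotated starts because both were high in Xyl and both are known targets of TMO5, a bHLH factor. Matches to CANNTG, the general form bound by bHLH proteins and its own reverse complement, are in capitals (RefSeq TAIR10.1, 5′ to 3′ on the strand of the gene).
LOG3 (chr2:15627033-15627282, reverse strand): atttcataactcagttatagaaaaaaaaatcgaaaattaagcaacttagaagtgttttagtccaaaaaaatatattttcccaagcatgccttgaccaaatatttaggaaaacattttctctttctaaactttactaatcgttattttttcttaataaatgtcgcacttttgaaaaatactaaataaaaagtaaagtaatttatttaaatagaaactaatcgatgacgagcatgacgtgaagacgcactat
LOG4 (chr3:19815667-19815916, reverse strand): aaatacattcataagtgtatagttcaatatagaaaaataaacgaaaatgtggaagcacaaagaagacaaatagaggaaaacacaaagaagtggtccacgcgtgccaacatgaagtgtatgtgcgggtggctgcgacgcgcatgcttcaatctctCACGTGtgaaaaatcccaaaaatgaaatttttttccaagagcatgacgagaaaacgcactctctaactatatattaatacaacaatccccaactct
LOG4 held 1 match, CACGTG, and LOG3 held none. Of 27443 such windows of nuclear protein-coding genes, 55.3% held CANNTG and 6.49% held CACGTG, which is one form of CANNTG. A match is a stretch of letters and not a binding site.

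LOG7 and LOG1 had the opposite pattern and were highest in NSC. LOG7 (AT5G06300) had 78.7, 35.8, 45.5 and 57.1 FPKM in the SCN, 40.03, 238 and 21.5 FPKM in the CEI and 59.5, 106, 47.5 and 87.5 FPKM in Protophlo. Epi/LRC had 11.1, 3.81 and 45.7 FPKM, CSC 25.4, 16 and 9.47 FPKM, Xyl 37.5, 44.2, 25.9 and 3.12 FPKM and the QC 59.2, 26.3 and 18.4 FPKM, against 122, 149, 207 and 267 FPKM in NSC. The NSC values lay above every stem cell sample other than CEI 2, the library with CASP1 at 999.8 FPKM. LOG7 was lower than in NSC in Epi/LRC (log2 fold change -3.68 ± 0.77 (SE), adjusted p = 0.00106), CSC (log2 fold change -3.42 ± 0.77 (SE), adjusted p = 0.00106), Xyl (log2 fold change -3.10 ± 0.71 (SE), adjusted p = 0.00099) and the QC (log2 fold change -2.50 ± 0.77 (SE), adjusted p = 0.0252). The QC call was lost without QC 2, QC 3 or NSC 4 (log2 fold changes of -2.39, -2.14 and -2.30). Among the stem cell types it was higher in Protophlo (log2 fold change 1.55 ± 0.56 (SE), adjusted p = 0.0284), a call lost without Protophlo 2 or Protophlo 4 (1.36 and 1.45).

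LOG1 (AT2G28305) was 0 in every sample of the SCN, and had 0, 0 and 0.0684 FPKM in Epi/LRC and 0, 16.8 and 0 FPKM in CSC. Protophlo had 0.197, 0.966, 0.0738 and 1.97 FPKM and the QC 2.39, 0.876 and 0 FPKM, whereas the CEI had 3.32, 7.39 and 5.85 FPKM and Xyl 4.98, 8.17, 3.96 and 1.47 FPKM, against 18.4, 31.5, 13.1 and 15.1 FPKM in NSC. CSC 2 was the only stem cell sample inside the NSC range. LOG1 was lower than in NSC in 6 of the 7 comparisons, with log2 fold changes from -4.28 in the SCN (adjusted p = 6.6e-05) to -1.93 in Xyl (adjusted p = 0.0182), and the 6 share the NSC samples. In the SCN, where it was listed at 0, the fitted size depends on the pseudocount. The Xyl call was lost with a pseudocount of 0.1 and without Xyl 4 or NSC 2 (-1.59 and -1.69). In the CEI LOG1 did not pass the threshold (log2 fold change -1.63 ± 0.71 (SE), adjusted p = 0.155). LOG8 was at 12.5 to 47.6 FPKM in all 28 samples and was higher in the QC than in NSC (log2 fold change 1.16 ± 0.39 (SE), adjusted p = 0.0375). This call was lost with size factors and without any one of QC 1, QC 2, QC 3, NSC 1, NSC 2 or NSC 3 (log2 fold changes of 1.05 to 1.24).

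**Figure D3:**
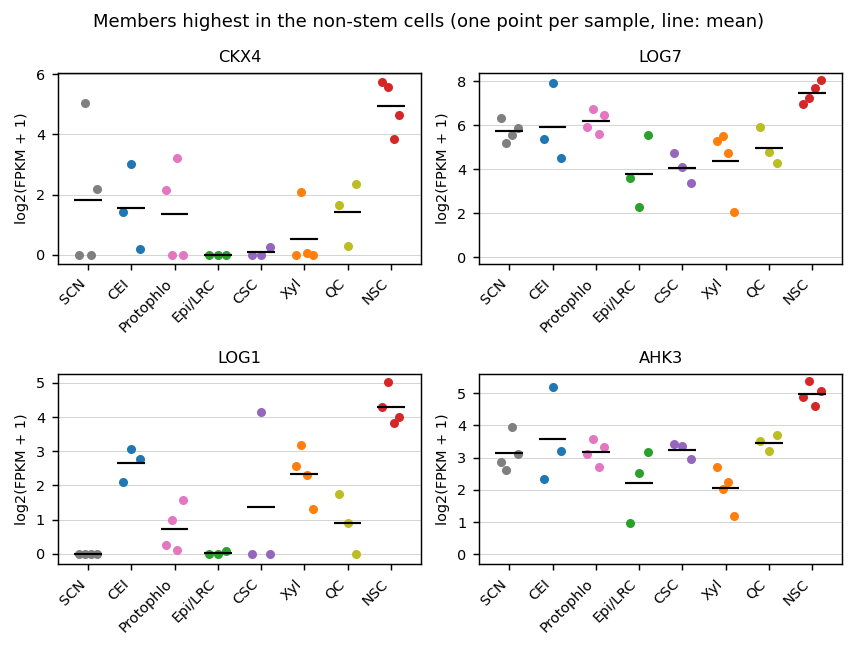
Points are the log2(FPKM + 1) of CKX4, LOG7, LOG1 and AHK3 in each sample by population, with NSC at the right and lines at the population means. NSC has the highest mean in all 4 panels, and the samples that reach into its range are SCN 2 for CKX4, CEI 2 for LOG7 and AHK3, and CSC 2 for LOG1.

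Of the CKX enzymes, CKX4 was the highest in all 4 NSC samples, CKX6 in 3 of 4 Xyl samples and CKX7 in 2 of 3 CSC samples. CKX4 (AT4G29740) had 0, 31.9, 0 and 3.56 FPKM in the SCN, 1.69, 7.17 and 0.153 FPKM in the CEI and 3.46, 0, 8.26 and 0 FPKM in Protophlo. It was 0 in every sample of Epi/LRC, and had 0, 0 and 0.183 FPKM in CSC, 0, 3.2, 0.0341 and 0 FPKM in Xyl and 2.14, 0.233 and 4.09 FPKM in the QC, against 52.5, 46.5, 13.4 and 23.9 FPKM in NSC. Among the stem cell samples only SCN 2 reached the NSC range. CKX4 was lower than in NSC in all 7 comparisons, which share the NSC samples, with log2 fold changes from -4.95 in Epi/LRC (adjusted p = 0.000606) to -3.14 in the SCN (adjusted p = 0.0201). In Epi/LRC, where it was listed at 0, the fitted size depends on the pseudocount. With a pseudocount of 0.1 the SCN, CEI and QC calls were lost. The SCN call was also lost with the SCN and NSC fitted alone and without SCN 1 or SCN 3 (-2.54 each). The CEI call was lost without CEI 1, CEI 3, NSC 1 or NSC 2 (-3.33, -2.72, -3.13 and -3.19) and the QC call without QC 2 (-2.95).

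Marker lists of other root tip tissues are given for Xyl and CSC, the populations with the most calls against NSC. The summed level of 4 ground tissue markers was 3.03 to 89.9 FPKM in Xyl and 0.0535 to 13.4 FPKM in CSC, against 524 to 870 FPKM in NSC, where CASP1 made up most of it and SCR was only at 4.52 to 8.45 FPKM. The sum of 4 root cap markers was 3.86 to 64.3 FPKM in Xyl and 107 to 235 FPKM in CSC, against 302 to 582 FPKM in NSC. In CSC its members went opposite ways: FEZ (55.9 to 109 FPKM) and SMB (29.0 to 76.6 FPKM) were above their 0.695 to 2.59 and 16.3 to 27.9 FPKM in NSC, and BRN1 and BRN2 were below. For each of the other lists, at least one of these populations overlapped with NSC. The sum of 3 epidermis markers was 12.9 to 67.5 FPKM in Xyl and 10.9 to 46.3 FPKM in CSC, against 29.9 to 40.6 FPKM in NSC, that of 6 phloem markers 17.7 to 31.7 FPKM in Xyl and 13.05 to 18.9 FPKM in CSC, against 20.6 to 87.1 FPKM in NSC, and that of 4 xylem markers 34.3 to 126 FPKM in CSC, against 21.4 to 61.0 FPKM in NSC. How much of the NSC levels of CKX4, LOG7, LOG1 and AHK3 came from cells of these tissues was not tested.

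CKX7 (AT5G21482) had 11.6, 13.1 and 3.15 FPKM in CSC. It had 0.176, 2.05, 0 and 3.48 FPKM in the SCN, 4.58, 1.27 and 3.37 FPKM in the CEI and 0.692, 1.22, 0 and 2.08 FPKM in Protophlo. Epi/LRC had 0, 4.17 and 0 FPKM, Xyl 0.219, 0, 0 and 0 FPKM and the QC 4.48, 3.02 and 4.17 FPKM, against 1.28, 0.488, 1.03 and 0.402 FPKM in NSC. All CSC values lay above those of NSC, and CKX7 was higher in CSC than in NSC (log2 fold change 2.35 ± 0.59 (SE), adjusted p = 0.0028) and than in the other 5 types (log2 fold change 1.98 ± 0.49 (SE), adjusted p = 0.00551). All QC values also lay above those of NSC, but CKX7 was not called there. CSC 3 lay inside the ranges of the QC, the CEI, Epi/LRC and the SCN. CKX7 was lower in Xyl than in the other 5 types (log2 fold change -1.74 ± 0.43 (SE), adjusted p = 0.00467). CKX6 (AT3G63440) had 2.67, 1.84, 5.03 and 14.3 FPKM in Xyl and 1.1, 5.71 and 4.41 FPKM in CSC. In the SCN it had 0.643, 1.34, 0 and 1.25 FPKM, in the CEI 0.326, 0 and 0.975 FPKM, in Protophlo 0.442, 0.107, 0 and 0 FPKM and in Epi/LRC 1.1, 0 and 3.42 FPKM. The QC had 0.768, 4.27 and 1.07 FPKM and NSC 0.504, 0.564, 0.525 and 0.474 FPKM. CKX6 was higher than in NSC in Xyl (log2 fold change 1.88 ± 0.52 (SE), adjusted p = 0.00461) and in CSC (log2 fold change 1.49 ± 0.56 (SE), adjusted p = 0.0359). The CSC call was lost with a pseudocount of 0.1, with size factors, and without CSC 2, CSC 3, NSC 1 or NSC 4 (1.15, 1.31, 1.48 and 1.47). CKX5 (AT1G75450) had 0.715, 0.458, 0.165 and 0.0297 FPKM in Xyl, 1.92, 6.11 and 2.18 FPKM in CSC and 2.12, 4.27, 1.78 and 3.91 FPKM in Protophlo. It had 2.64, 1.3, 1.45 and 1.66 FPKM in the SCN, 1.38, 2.18 and 1.5 FPKM in the CEI, 1.18, 0 and 1.13 FPKM in Epi/LRC, 1.87, 0.503 and 0.783 FPKM in the QC and 1.56, 1.46, 5.35 and 2.5 FPKM in NSC. All Xyl values lay below those of NSC (log2 fold change -1.39 ± 0.41 (SE), adjusted p = 0.00757). Other genes overlap CKX5 and CKX6 in the annotation, and their reads cannot be told apart without strand.

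Among the receptors, AHK4 had the highest level in 23 of the 28 samples, and AHK3 in the 4 NSC samples and CEI 2. AHK4 (AT2G01830), the receptor known for vascular development in the root, had 76, 31.5, 28.1 and 34.9 FPKM in the SCN, 15.9, 17.1 and 19.2 FPKM in the CEI and 19.2, 41.6, 21 and 54.8 FPKM in Protophlo. Epi/LRC had 23.9, 9.73 and 23.3 FPKM, CSC 12.7, 49.8 and 23.2 FPKM, Xyl 30.4, 29.8, 44.6 and 27.3 FPKM and the QC 34, 38.7 and 24.2 FPKM, against 26.9, 21.5, 18.7 and 17.7 FPKM in NSC. The SCN and Xyl samples all lay above NSC, and the other populations overlapped with it. AHK4 was not called in any comparison: its adjusted p was 0.154 in the SCN and 0.234 in Xyl against NSC, and 0.15 among the 8 populations.

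AHK3 (AT1G27320) had 6.23, 5.12, 14.5 and 7.62 FPKM in the SCN, 4.07, 35.9 and 8.23 FPKM in the CEI, 7.59, 11, 5.57 and 8.98 FPKM in Protophlo and 0.944, 4.7 and 8.01 FPKM in Epi/LRC. In CSC it had 9.63, 9.17 and 6.82 FPKM, in Xyl 5.58, 3.07, 3.71 and 1.29 FPKM and in the QC 10.4, 8.14 and 12 FPKM, against 28.5, 40.8, 23 and 32.7 FPKM in NSC. All stem cell samples other than CEI 2 lay below the NSC range. AHK3 was lower than in NSC in Xyl (log2 fold change -2.94 ± 0.51 (SE), adjusted p = 6.79e-05), Epi/LRC (log2 fold change -2.77 ± 0.56 (SE), adjusted p = 0.00078), the SCN (log2 fold change -1.85 ± 0.51 (SE), adjusted p = 0.0172), Protophlo (log2 fold change -1.80 ± 0.51 (SE), adjusted p = 0.02) and CSC (log2 fold change -1.74 ± 0.56 (SE), adjusted p = 0.0145). The Protophlo call was lost without Protophlo 3 or NSC 2 (-1.65 and -1.67). In the QC the adjusted p was 0.0594, just inside the threshold, and the call was lost under 4 of 7 alternatives and in 19 of 28 leave-one-out fits. In the CEI it did not pass (log2 fold change -1.40 ± 0.56 (SE), adjusted p = 0.116). Without CSC 2, CEI 2 and Protophlo 4 the CEI had 7 called genes in place of 1.

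AHK2 (AT5G35750) had 1.46, 0.0254 and 0.0963 FPKM in Epi/LRC, 0.0462, 0 and 1.29 FPKM in CSC and 1.82, 0.156, 1.92 and 0 FPKM in Xyl. The SCN had 2.84, 5.75, 10.01 and 7.3 FPKM, the CEI 2.29, 4.49 and 2.13 FPKM, Protophlo 5.58, 5.18, 1.75 and 3 FPKM and the QC 3.85, 4.84 and 6.7 FPKM, against 3.48, 3.14, 3.33 and 4.77 FPKM in NSC. Values in Epi/LRC, CSC and Xyl all lay below those of NSC. AHK2 was lower than in NSC in CSC (log2 fold change -1.79 ± 0.51 (SE), adjusted p = 0.00691), Epi/LRC (log2 fold change -1.72 ± 0.51 (SE), adjusted p = 0.0134) and Xyl (log2 fold change -1.40 ± 0.47 (SE), adjusted p = 0.0179). The Epi/LRC call was lost without Epi/LRC 2 (-1.50) and the Xyl call without Xyl 2 or Xyl 4 (-1.20 and -1.13).

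The AHP proteins are shown by the coding sequence around the residue that carries the phosphoryl group, because AHP6 differs from the others there. Each window of 39 bases has the codon of that position in capitals (RefSeq TAIR10.1, 5′ to 3′ on the coding strand, inside 1 exon).
AHP1 (chr3:7578963-7579001, reverse strand): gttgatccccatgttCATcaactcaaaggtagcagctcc
AHP2 (chr3:11264843-11264881, reverse strand): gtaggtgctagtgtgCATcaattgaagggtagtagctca
AHP3 (chr5:15749739-15749777, forward strand): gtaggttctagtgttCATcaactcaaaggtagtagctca
AHP4 (chr3:5554743-5554781, forward strand): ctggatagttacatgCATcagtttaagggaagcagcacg
AHP5 (chr1:848673-848711, forward strand): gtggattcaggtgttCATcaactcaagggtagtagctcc
AHP6 (chr1:30134161-30134199, forward strand): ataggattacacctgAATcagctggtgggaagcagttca
AHP1 to AHP5 carry the histidine codon CAT, and AHP6 carries the asparagine codon AAT. AHP6 is therefore known as a pseudo-phosphotransfer protein that inhibits the relay.

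AHP6 (AT1G80100) had 61.2, 80.7, 119 and 153 FPKM in Xyl. It had 1.22, 0.375 and 5.93 FPKM in the CEI, 0, 24.1 and 0.193 FPKM in CSC, 1.04, 0, 0 and 0 FPKM in Protophlo and 0.289, 0 and 0 FPKM in the QC. It was 0 in every sample of the SCN and of Epi/LRC, and had 0.283, 0, 0 and 1.33 FPKM in NSC. Every Xyl value was above every other value, with CSC 2 next. AHP6 was higher in Xyl than in NSC (log2 fold change 6.23 ± 0.68 (SE), adjusted p = 1.61e-07) and than in the other 5 types (log2 fold change 5.93 ± 0.53 (SE), adjusted p = 1.22e-08), and both calls held in every alternative. Its share of the summed AHP level was 44.2 to 80.6% in the Xyl samples, and elsewhere at most 6.03%, in CSC 2.

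The 3 abundant AHPs with the histidine differed from AHP6 in where they were low. AHP1 (AT3G21510) had 22, 38.8, 2.55 and 1.29 FPKM in Xyl. The CSC samples had 126, 344 and 154 FPKM, Protophlo 198, 174, 149.9 and 114 FPKM, the CEI 131, 165 and 85.8 FPKM and Epi/LRC 59.4, 80.2 and 87.8 FPKM. In the QC it had 89.1, 17.5 and 25.6 FPKM, in the SCN 87.7, 76.2, 223 and 120.1 FPKM and in NSC 52.8, 55.1, 74.3 and 84 FPKM. All Xyl values lay below those of NSC (log2 fold change -2.84 ± 0.63 (SE), adjusted p = 0.000779) and AHP1 was lower in Xyl than in the other 5 types (log2 fold change -3.43 ± 0.50 (SE), adjusted p = 2.19e-05). Against those types it was higher in CSC (log2 fold change 1.80 ± 0.56 (SE), adjusted p = 0.0248), a call lost with size factors and without CSC 2 (1.36), and in Protophlo (log2 fold change 1.47 ± 0.50 (SE), adjusted p = 0.0204), a call lost without Protophlo 1 (1.35).

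AHP2 (AT3G29350) had 1.37, 4.54 and 2.16 FPKM in CSC. Epi/LRC had 17.6, 1.41 and 15.9 FPKM, Xyl 19.2, 19.4, 25.9 and 13 FPKM, the QC 36.9, 14.6 and 26.3 FPKM and the SCN 27.6, 31.1, 44.5 and 57.9 FPKM. In the CEI it had 30.6, 61.8 and 27.1 FPKM, in Protophlo 62.5, 77.5, 64.6 and 47.3 FPKM and in NSC 67.7, 63.4, 75.5 and 88.1 FPKM. CSC was far below NSC (log2 fold change -4.42 ± 0.51 (SE), adjusted p = 5.07e-07) and below the other 5 types (log2 fold change -2.89 ± 0.42 (SE), adjusted p = 3.34e-05), and both calls held in every alternative. AHP2 was also lower than in NSC in Epi/LRC (log2 fold change -3.02 ± 0.51 (SE), adjusted p = 0.00016), Xyl (log2 fold change -1.90 ± 0.47 (SE), adjusted p = 0.00204) and the QC (log2 fold change -1.55 ± 0.51 (SE), adjusted p = 0.0363). The QC call was lost with a pseudocount of 0.1 and without QC 2, QC 3, NSC 3 or NSC 4 (-1.20, -1.61, -1.54 and -1.46). Protophlo was above the other 5 types (log2 fold change 2.14 ± 0.37 (SE), adjusted p = 7.49e-05).

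AHP3 (AT5G39340) had 21, 17.6, 15.9 and 8.92 FPKM in Xyl and 20.3, 15.6 and 29.6 FPKM in CSC. Protophlo had 143, 195, 132 and 78.9 FPKM, the SCN 105, 36.6, 76.9 and 153 FPKM, the CEI 60.7, 69.2 and 79 FPKM and Epi/LRC 32.1, 11.3 and 82 FPKM. The QC had 74.3, 66.7 and 82.3 FPKM and NSC 72.2, 64.6, 47.7 and 58.6 FPKM. Both Xyl and CSC lay wholly below NSC (log2 fold change -1.92 ± 0.44 (SE), adjusted p = 0.00105 in Xyl and log2 fold change -1.46 ± 0.48 (SE), adjusted p = 0.0165 in CSC), and the CSC call was lost without CSC 2 (-1.26). Protophlo was above the other 5 types (log2 fold change 1.87 ± 0.35 (SE), adjusted p = 0.000149). The difference of Protophlo minus Xyl was 3.02 ± 0.44 (SE), a pair outside the planned comparisons that is given as a description. AHP3 overlaps another gene on its own strand in the annotation. AHP5 was highest in Xyl, at 11.1 to 20.5 FPKM against 4.24 to 5.34 FPKM in NSC, but was not called there (log2 fold change 1.40 ± 0.70 (SE), adjusted p = 0.11), and AHP4 stayed at or below 3.18 FPKM.

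**Figure D4:**
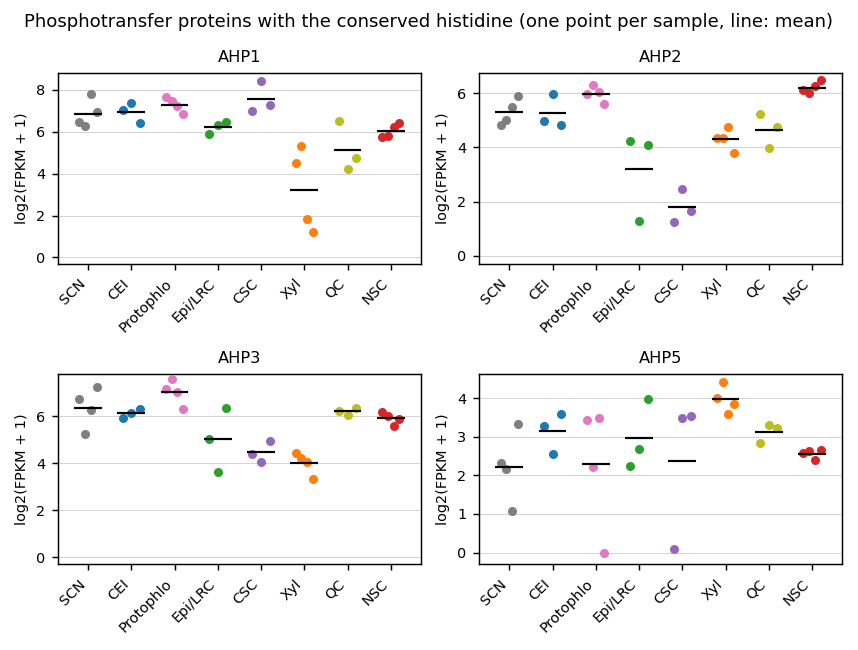
Points are the log2(FPKM + 1) of AHP1, AHP2, AHP3 and AHP5 in each sample by population, with NSC at the right and lines at the population means. AHP1 is lowest in Xyl, AHP2 is lowest in CSC, AHP3 is low in both, and AHP5 has its highest mean in Xyl.

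Of the type-B ARRs, the transcription factors of the pathway, ARR1, ARR10 or ARR12 was the highest of the 7 in every sample. In Xyl 1 of the 7, ARR10, was called against NSC (background 43.6%), and none was called in another population. ARR10 (AT4G31920) had 11.1, 14.2, 9.31 and 6.46 FPKM in Xyl and 127, 35.9 and 117 FPKM in Epi/LRC. The SCN had 53.7, 30.6, 41.9 and 33.2 FPKM, the CEI 31.3, 31 and 10.5 FPKM, Protophlo 35.8, 33.3, 26.9 and 37.8 FPKM and CSC 29, 32.8 and 19.3 FPKM. The QC had 56.4, 31.8 and 25.9 FPKM and NSC 54, 41.1, 40.2 and 30.03 FPKM. Xyl lay wholly below NSC (log2 fold change -1.93 ± 0.39 (SE), adjusted p = 0.000297) and below the other 5 types (log2 fold change -1.74 ± 0.31 (SE), adjusted p = 0.000201), whereas Epi/LRC was above the other 5 types (log2 fold change 1.75 ± 0.34 (SE), adjusted p = 0.00383). ARR2 (AT4G16110) had 16.4, 23.5, 27.9 and 26.6 FPKM in Protophlo, 36.2, 8.36, 2.7 and 17 FPKM in the SCN, 4.51, 19.1 and 16.3 FPKM in the CEI and 12.5, 0 and 19.9 FPKM in Epi/LRC. In CSC it had 12, 15.9 and 2.29 FPKM, in Xyl 10.8, 5.55, 14.8 and 6.03 FPKM, in the QC 8.16, 5.54 and 6.95 FPKM and in NSC 9.71, 11.5, 7.75 and 9.78 FPKM. It was higher in Protophlo than in the other 5 types (log2 fold change 1.44 ± 0.58 (SE), adjusted p = 0.0473), a call lost under 4 of 6 alternatives and without any one of 5 samples (CEI 1, Protophlo 2, Protophlo 3, Protophlo 4 or CSC 3, at 1.30 to 1.44). ARR12 was at 25.2 to 77.5 FPKM and ARR1 at 14.2 to 57.4 FPKM in all samples. ARR12 was called among the 8 populations (adjusted p = 0.0422) and ARR1 was not (adjusted p = 0.218). ARR11, ARR14 and ARR18 did not exceed 5.40 FPKM.

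The type-A ARRs are induced by cytokinin. Their summed level, most of which came from ARR3, ARR4, ARR8 and ARR9, was 31.6 to 63.0 FPKM in Xyl (median 46.0) and 249 to 364 FPKM in CSC (median 360), against 117 to 139 FPKM in NSC (median 131). The sums of the type-B ARRs were 88.6 to 113 FPKM in Xyl and 85.8 to 162 FPKM in CSC, against 101 to 136 FPKM in NSC. Of the 10 type-A genes 9 were tested, and 5 were lower in Xyl than in NSC (ARR3, ARR5, ARR6, ARR7 and ARR9; background 23.5%). Of these, ARR7 was also called lower than in NSC in the SCN, Protophlo and the QC. In CSC 4 were higher (ARR5, ARR8, ARR9 and ARR15; background 22.6%). Against the other 5 types, 5 were lower in Xyl (ARR3, ARR5, ARR6, ARR8 and ARR9; background 11.6%). In CSC 4 were higher than in the other 5 types (ARR5, ARR8, ARR9 and ARR15; background 13.2%). Not all members followed the sum: ARR7 had its highest mean in Epi/LRC (5.30 FPKM) and its lowest in the SCN (0.0601 FPKM), and ARR17 had its highest mean in the SCN and was listed at 0 in CSC.

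ARR5 (AT3G48100) had 1.85, 0.0898, 0.152 and 0.192 FPKM in Xyl and 11.4, 51.5 and 42.9 FPKM in CSC. In the SCN it had 13.4, 2.54, 6.16 and 9.86 FPKM, in the CEI 7.48, 3.67 and 12.9 FPKM, in Protophlo 16.6, 9.92, 6.68 and 10.3 FPKM, in Epi/LRC 4.53, 9.4 and 25.8 FPKM and in the QC 9.26, 11.9 and 11.9 FPKM, against 4.38, 3.93, 9.02 and 9.69 FPKM in NSC. Xyl lay wholly below NSC and CSC wholly above it. ARR5 was lower in Xyl (log2 fold change -2.34 ± 0.55 (SE), adjusted p = 0.00129) and higher in CSC (log2 fold change 2.07 ± 0.60 (SE), adjusted p = 0.00772), a difference between CSC and Xyl of 4.41 ± 0.60 (SE). ARR3 (AT1G59940) had 2.55, 5.46, 7 and 0.885 FPKM in Xyl, 61.7, 64.4, 80.9 and 45.2 FPKM in Protophlo and 65.8, 34.4, 88.2 and 28.8 FPKM in the SCN. The CEI had 29.3, 37.6 and 19.1 FPKM, Epi/LRC 10.7, 3.33 and 39.5 FPKM and CSC 33.4, 94.5 and 34.9 FPKM. The QC had 46.1, 15.5 and 103 FPKM and NSC 41.9, 30.5, 31.6 and 40.3 FPKM. ARR3 was lower in Xyl than in NSC (log2 fold change -3.09 ± 0.58 (SE), adjusted p = 0.000153), with no overlap, and higher in Protophlo than in the other 5 types (log2 fold change 1.64 ± 0.46 (SE), adjusted p = 0.00595).

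ARR9 (AT3G57040) had 5.33, 3.47, 4.48 and 0 FPKM in Xyl and 58.6, 47.9 and 32.4 FPKM in CSC. The SCN had 33.5, 13.7, 21.7 and 18.5 FPKM, the CEI 8.08, 9.31 and 15.4 FPKM, Protophlo 34.2, 21.3, 15.4 and 33.4 FPKM, Epi/LRC 22.6, 0.0818 and 29.4 FPKM and the QC 15.7, 29.2 and 33.6 FPKM, against 11.8, 10.6, 9.996 and 10.6 FPKM in NSC. No Xyl or CSC value overlapped with NSC, and CSC minus Xyl was 3.71 ± 0.75 (SE). Each difference from NSC was near the threshold: log2 fold change -1.73 ± 0.69 (SE), adjusted p = 0.0448 in Xyl, and log2 fold change 1.97 ± 0.75 (SE), adjusted p = 0.0375 in CSC. The Xyl call was lost with a pseudocount of 0.1, with no filter, and without Xyl 4 (-1.13) or any one NSC sample (-1.69 to -1.76). The CSC call was lost with a pseudocount of 0.1, with size factors, and without CSC 1, CSC 2, NSC 2, NSC 3 or NSC 4 (1.79 to 1.97). Against the other 5 types ARR9 was lower in Xyl (log2 fold change -2.51, adjusted p = 0.00172), a call that held in every alternative. ARR6 (AT5G62920) had 0.468, 1.98, 1 and 0 FPKM in Xyl, 18, 5.08, 24.8 and 6.24 FPKM in the SCN and 1.04, 5.47 and 16.5 FPKM in the CEI. Protophlo had 16.1, 8.55, 0.0832 and 0.178 FPKM, Epi/LRC 3.31, 5.49 and 43.4 FPKM, CSC 8.2, 6.57 and 11.5 FPKM, the QC 4.58, 0.856 and 4.87 FPKM and NSC 5.17, 12.1, 7.3 and 7.2 FPKM. All Xyl values lay below those of NSC (log2 fold change -2.32 ± 0.83 (SE), adjusted p = 0.0253), a call lost without Xyl 4 or NSC 2 (-2.06 and -2.12).

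Of the other type-A genes, ARR8 was at 78.3 to 170 FPKM in CSC against 18.2 to 31.4 FPKM in NSC (log2 fold change 2.12 ± 0.44 (SE), adjusted p = 0.000533), a call that held in every alternative. In Protophlo ARR8 was at 41.3 to 80.2 FPKM (log2 fold change 1.29 ± 0.41 (SE), adjusted p = 0.0355), a call lost without Protophlo 3, Protophlo 4, NSC 1 or NSC 2 (1.26, 1.14, 1.19 and 1.17). ARR8 was lower in Xyl than in the other 5 types (log2 fold change -2.05, adjusted p = 4.86e-05), and this call held in every alternative. ARR15 had 0, 8.30 and 3.24 FPKM in CSC and was listed at 0 in all but 1 NSC sample. Its call in CSC against NSC was lost with CSC and NSC fitted alone and without CSC 2. ARR17 had 5.89, 1.21, 0 and 5.08 FPKM in the SCN and was listed at 0 in all 4 NSC samples (adjusted p = 0.0307). This call was lost with the SCN and NSC fitted alone and without SCN 1, SCN 4, NSC 2, NSC 3 or NSC 4. ARR7 was at 4.04 to 6.86 FPKM in Epi/LRC, above the other 5 types (log2 fold change 2.13 ± 0.39 (SE), adjusted p = 0.00234), and at 1.61 to 3.54 FPKM in NSC. Its log2 fold changes against NSC were -1.48 in Xyl, -1.74 in the SCN, -1.58 in the QC and -1.44 in Protophlo, all called. It stayed below 1 FPKM in these populations. The QC call was lost without QC 2 or QC 3 (-1.46 each). The Protophlo call was lost with a pseudocount of 0.1 and without Protophlo 1, Protophlo 4, NSC 1 or NSC 2 (-1.32 to -1.34). ARR4 was at 21.4 to 30.3 FPKM in Xyl against 36.8 to 47.4 FPKM in NSC and was called among the 8 populations only (adjusted p = 0.0493). Genes on the opposite strand overlap ARR6, ARR8 and ARR9 in the annotation, and their reads cannot be told apart without strand.

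**Figure D5:**
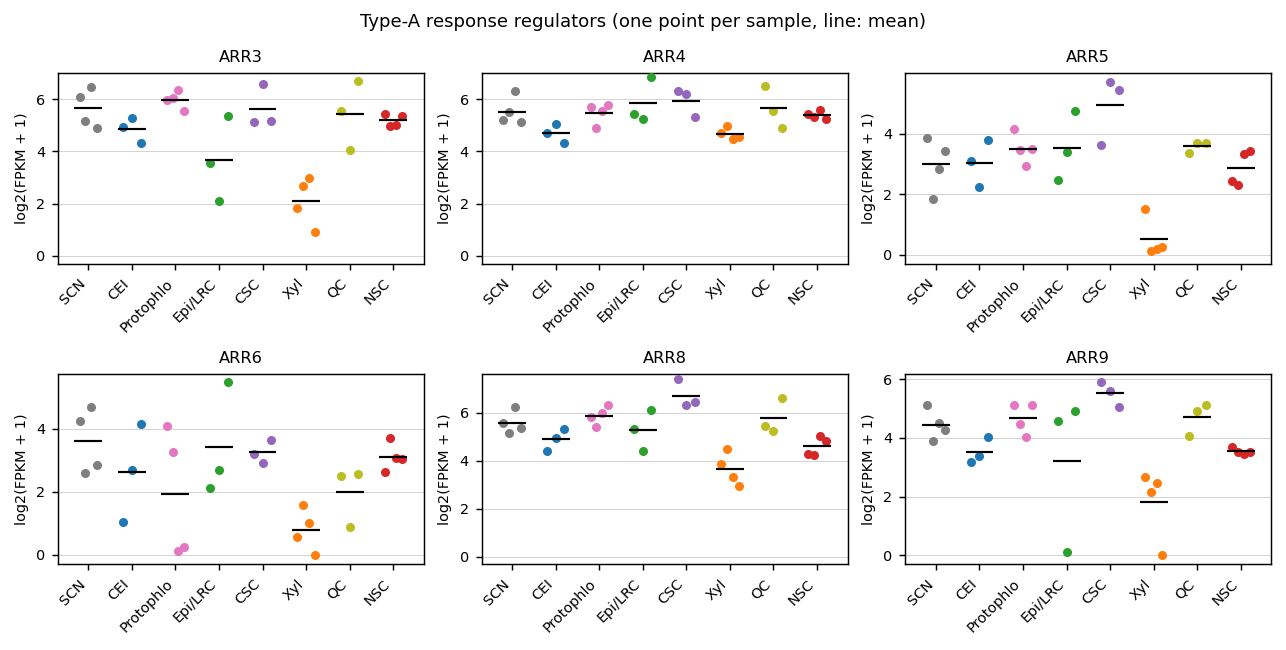
Points are the log2(FPKM + 1) of 6 type-A ARRs in each sample by population, with NSC at the right and lines at the population means. Xyl has the lowest mean in all 6 panels, and CSC has the highest mean for ARR5, ARR8 and ARR9.

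AGATT, the core of the site bound by type-B ARRs, was searched on both strands (AATCT on the other) in the 250 bases before each start. It was found in 7 of the 10 type-A genes (70%), against 63.7% of the 27443 windows, so these letters are common. ARR9 is shown because it differed in opposite directions in Xyl and CSC, and ARR8 because it was the type-A gene highest in CSC, with matches in capitals (RefSeq TAIR10.1, 5′ to 3′ on the strand of the gene).
ARR9 (chr3:21108809-21109058, forward strand): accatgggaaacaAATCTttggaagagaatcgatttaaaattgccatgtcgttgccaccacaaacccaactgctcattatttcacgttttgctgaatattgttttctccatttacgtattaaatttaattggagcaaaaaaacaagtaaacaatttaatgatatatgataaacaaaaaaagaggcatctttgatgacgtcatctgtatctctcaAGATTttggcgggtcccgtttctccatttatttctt
ARR8 (chr2:17221590-17221839, forward strand): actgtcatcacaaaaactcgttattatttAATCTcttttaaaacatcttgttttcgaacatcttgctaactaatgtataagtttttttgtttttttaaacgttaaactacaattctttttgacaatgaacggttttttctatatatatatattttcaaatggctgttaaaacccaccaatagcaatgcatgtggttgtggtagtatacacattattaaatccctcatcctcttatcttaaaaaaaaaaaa
ARR9 held 2 matches and ARR8 held 1. ARR5, which differed from NSC in the same directions, held none, and no match says only that these letters are not in this window.

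Beyond these genes, 34 others of the pathway or of related families were counted, and 26 were tested. They included further IPT and LOG genes, carriers, glucosyltransferases, CRF transcription factors and the KMD proteins that target type-B ARRs for degradation. CYP735A1, CYP735A2, AHK1, AHK5, CKI1 and further ARR genes were also on the list. In Xyl 6 were higher (background 20%) and 8 lower, AHK5 among them (background 23.5%), than in NSC. In CSC 4 were higher (background 22.6%) and 6 lower (background 18.3%), and in Epi/LRC 3 were higher (background 12.5%) and 5 lower (background 16.6%), so the counts of higher genes were near or below the share of all genes. The largest differences by size were those of 6 genes, whose calls were not checked in the alternatives or with samples left out. CRF4, an AP2 factor of the cytokinin response family, had 185, 147, 170.5 and 165 FPKM in Xyl against 2.25, 4.67, 4.71 and 3.46 FPKM in NSC (log2 fold change 5.17 ± 0.83 (SE), adjusted p = 2.72e-05). PUP14, a carrier that removes cytokinin from the apoplast, had 5.8, 1.89 and 8.57 FPKM in Epi/LRC against 109, 77.5, 257 and 207 FPKM in NSC (log2 fold change -4.68 ± 0.78 (SE), adjusted p = 0.000134). CRF7 had 8.46, 1.31 and 4.36 FPKM in Epi/LRC against 84.6, 93.5, 85.4 and 113 FPKM in NSC (log2 fold change -4.27 ± 0.92 (SE), adjusted p = 0.00142). The first of these was higher in the sorted cells and the other two were lower, without overlap. UGT76C2, a glucosyltransferase that inactivates cytokinin, had 65.1, 44.8 and 40.7 FPKM in CSC against 3.01, 2.73, 1.65 and 2.1 FPKM in NSC (log2 fold change 3.91 ± 0.63 (SE), adjusted p = 4.39e-05). KMD3 had 0.183, 0 and 4.87 FPKM in CSC against 23.5, 40.7, 7.18 and 10.5 FPKM in NSC (log2 fold change -3.21 ± 0.78 (SE), adjusted p = 0.00205). KMD4 had 4.05, 0.983, 2.71 and 0.505 FPKM in Xyl against 22.7, 40.2, 11 and 25.2 FPKM in NSC (log2 fold change -3.11 ± 0.59 (SE), adjusted p = 0.000169). Each of the 6 is shown where its difference was largest, and each was also called elsewhere against NSC. PUP14 was also lower in the SCN, CSC, Xyl and the QC, and CRF7 in every other population except the CEI. KMD4 was also lower in the SCN, Epi/LRC and the QC, and KMD3 in Epi/LRC and Xyl. UGT76C2 was also higher in the SCN and the QC, and CRF4 in CSC.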

How the data were processed

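The authors sorted protoplasts by fluorescence, made SMART-Seq libraries without strand information, sequenced 100 bp single-end reads and deposited FPKM per gene and sample, an estimate scaled to transcript length and mapped reads. Per the submitters' processing notes the tools included TopHat2 2.0.13 and Cufflinks 2.1.1 with TAIR10, and the methods name Bowtie, Tuxedo and Rsubread. No counts were used here, so depth was estimated from the lowest steps of the FPKM values (7.67 to 31.6 reads per kb at 1 FPKM). The study's test, PoissonSeq, needs counts and was replaced. A gene without reads and a failed estimate are both listed at 0.

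Values were transformed to log2(FPKM + 1), a scale that understates changes of low genes. The 22694 genes with at least 1 FPKM in at least 3 of the 28 samples were fitted in limma 3.58.1 (R 4.3.3) with a mean per population and a trended prior. The contrasts were 7 populations against NSC, 6 stem cell types each against the mean of the other 5, and an F test over the 8 populations. Calls needed an adjusted p under 0.06, the study's threshold, and a fold change over 2. On simulated data for Xyl against NSC with 22694 genes, 165 of 200 genes changed by a log2 of 2 were called, with 16 unchanged genes. These 200 were drawn only from genes with a spread below the median and an NSC mean above 2 on the log2(FPKM + 1) scale. The noise was drawn as normal. The simulation therefore does not cover low or more variable genes.

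The genes and lists were chosen with earlier results of these data known. Values in every sample are given for up to 4 called genes per family with the largest log2 fold change in the 13 comparisons, plus AHP6 and AHK4, 23 in all. ARR8, ARR12 and other genes outside the rule are given by ranges, and sequences of ARR8 by choice after its values were seen. Alternatives were a pseudocount of 0.1, no filter, median-of-ratios size factors, the replicate number as a block, an adjusted p under 0.05, each population fitted with NSC alone, each sample left out in turn and, chosen after seeing the data, CSC 2, CEI 2 and Protophlo 4 left out together. Columns were matched to samples by marker initial and replicate number, those of CEI partly by elimination, and no 2 columns were identical. Same-numbered samples of a population and NSC deviated together little or not at all, and they were not paired. The SCN and NSC were sorted from the same line, and their same-numbered correlations were -0.0119, 0.116, 0.0558 and 0.114. No fit paired the SCN with NSC alone, so the effect of such a pairing was not tested. No label gives a sequencing batch. Symbols, overlaps and sequences come from RefSeq TAIR10.1. Tables and plots used Python 3.11.15, numpy 2.4.6, pandas 2.3.3 and matplotlib 3.10.9.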

Additional observations from a re-analysis of the deposited data

Results flagged for a closer look

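Among 70 groups of 4 samples checked for a sample far from the rest by Dixon's test, of which chance flags about 1 in 20, 3 samples stood out. LOG3 was at 141 FPKM in Xyl 1, against 208 to 219 FPKM in the other Xyl samples. CKX4 was at 31.9 FPKM in SCN 2, against 0 to 3.56 FPKM in the other SCN samples. AHK4 was at 76.0 FPKM in SCN 1, against 28.1 to 34.9 FPKM in the other SCN samples.

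Among the 23 genes given in every sample, 3 passed the threshold against NSC in opposite directions in a pair of populations. The genes were picked for that, and both differences share the NSC samples, so the differences from limma are given as a description with no p. ARR5 was higher in CSC (log2 fold change 2.07) and lower in Xyl (-2.34), and CSC minus Xyl was 4.41 ± 0.60 (SE). ARR9 was higher in CSC (1.97) and lower in Xyl (-1.73), and CSC minus Xyl was 3.71 ± 0.75 (SE). LOG3 was higher in Xyl (5.32) and was listed at 0 in Epi/LRC (-2.29), and Xyl minus Epi/LRC was 7.60 ± 0.77 (SE), a fitted size that depends on the pseudocount. The Epi/LRC call of LOG3 was lost without Epi/LRC 1, Epi/LRC 2 or NSC 2 (-2.29, -2.29 and -2.14).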

How the results depend on the processing

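Over the 98 calls of a gene in a comparison, no alternative reversed a direction. Of these calls, 83 were kept with a pseudocount of 0.1, 92 without a filter, 92 with size factors, 96 at an adjusted p under 0.05, 55 of 58 with each population and NSC fitted alone, and 62 in all 28 fits that left out a sample. Without CSC 2, CEI 2 and Protophlo 4 together, 85 were kept. Those lost against NSC were ARR9, CKX6 and AHP3 in CSC and ARR8 in Protophlo. Those lost against the other types were ARR15, ARR9, AHP1, ARR5, AHP3 and AHK2 in CSC, AHK3 and CKX5 in Xyl, and ARR2 in Protophlo. Every alternative kept 60 of the 98 calls. Deviations of same-numbered samples from NSC correlated at -0.18 to 0.13. With the replicate number as a block across all populations 92 calls were kept. Size factors shifted the median log2 fold change of all genes by -0.30 in CSC, -0.22 in the QC, -0.14 in Epi/LRC and -0.11 in the SCN and Xyl against NSC. Against the other types the shifts were 0.27 in Protophlo, -0.29 in CSC, -0.13 in the QC and 0.10 in the CEI. The share of calls that were higher over all genes was 37.9% with size factors and 55.2% as deposited in CSC against NSC, 29.6% and 49.5% in the QC, 28.2% and 38.3% in the SCN, and 35.4% and 25.1% in Protophlo. Against the other types it was 39.3% and 64.1% in CSC, and 52.6% and 35.8% in Protophlo.

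The count of called genes against NSC was 0 in the CEI and 4 in the QC with a pseudocount of 0.1, and 9 in Protophlo with size factors. With each population and NSC fitted alone it was 4 in the CEI, 13 in Protophlo and 11 in the QC. Without CSC 2, CEI 2 and Protophlo 4, an alternative chosen after seeing the data, it was 7 in the CEI against NSC, and 1 in the CEI and 1 in the QC against the other 5 types. Leaving out each sample in turn gave 3 to 6 called genes against NSC in the SCN, 0 to 4 in the CEI, 2 to 7 in Protophlo, 6 to 9 in Epi/LRC, 11 to 15 in CSC, 16 to 21 in Xyl and 2 to 9 in the QC. Against the other types it gave 0 to 2 in the CEI, 9 to 12 in Protophlo, 3 to 6 in Epi/LRC, 7 to 10 in CSC, 12 to 16 in Xyl and 0 to 1 in the QC, and 23 to 27 genes by the F test. Groups of 3 or 4 samples, and values near 1 read for genes under 1 FPKM, limit what could be called.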
